A study of Homo sapiens with 2 samples.

Results

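Of the 368 peaks listed for FLAG-tagged USP39, 200 were assigned to an intron (161 peaks) or to an intergenic region (39 peaks), and these 200 are described here. They were chosen by the region given to each peak in the deposited list, so the choice used an annotation and no measured value. The 161 peaks assigned to exons (105), 3′ UTRs (55) or a 5′ UTR (1) were used for comparison, and 7 peaks upstream or downstream of genes were left out. The peaks came from RNA immunoprecipitation and sequencing (RIP-seq) in A2780, an established human ovarian cancer cell line that expressed FLAG-USP39. RNA precipitated with an anti-FLAG antibody gave 1 library and input RNA from the same FLAG-USP39 cells gave the other library, with no replicate of either. The list gives positions on hg19 and no strand, read count, enrichment or score, so depth is unknown and no peak could be placed above another. Each peak is a run of bins of the caller, 200, 205 or 210 bp wide depending on the chromosome, and its edges are no finer than a bin. Shares are given with 95% Wilson intervals and medians with 95% order-statistic intervals. These intervals cover the counting of peaks only, neighbouring peaks are not independent, and with 1 library per group no difference was tested. Because HMGA2 alone held 42 of the 200 peaks, values are given with and without it. Leaving it out removed only peaks named for HMGA2. The 7 peaks of LOC100129940 and the 4 of LOC101927810, which lie between HMGA2 peaks, stayed in. Only 84 of the 200 peaks lay on chromosomes other than 12, and values without chromosome 12 are given near the end.

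USP39 is a protein of the U4/U6.U5 tri-snRNP, the particle that joins the pre-mRNA when the spliceosome is assembled, and it lacks the protease activity of other members of the ubiquitin-specific protease family. Introns are bounded by a 5′ splice site, where they usually begin with GT, and a 3′ splice site, where they end with AG behind a stretch rich in pyrimidines. RNA that is still unspliced carries introns, and many long non-coding RNAs are themselves spliced slowly or stay in the nucleus. HMGA2, which encodes an architectural chromatin protein that binds AT-rich DNA, has a very long intron 3.

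The sequences below show the kinds of place where the intron peaks lay. They were read from hg19 on the sense strand of the gene. In the first set, capitals mark exon bases of the canonical transcript and lower case marks the intron, so that the edge between them is a splice site. The peak of BAZ2A, a chromatin remodelling subunit, at chr12:57003401-57003600 (minus strand) held 81 exon bases and then the 5′ end of intron 10. That of the chromatin remodeller EP400 at chr12:132467001-132467200 (plus strand) held 23 exon bases and the 5′ end of intron 5. That of the amino acid transporter SLC38A1 at chr12:46596801-46597000 (minus strand) ran the other way, from intron 11 into 72 bases of the next exon. A peak of HNRNPU, a nuclear RNA-binding protein, at chr1:245022121-245022330 (minus strand) held the 3′ end of intron 5 and 23 exon bases.
BAZ2A: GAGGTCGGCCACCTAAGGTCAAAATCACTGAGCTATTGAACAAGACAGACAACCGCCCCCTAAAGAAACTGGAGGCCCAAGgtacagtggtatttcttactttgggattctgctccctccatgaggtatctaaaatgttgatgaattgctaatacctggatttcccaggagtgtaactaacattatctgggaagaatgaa
EP400: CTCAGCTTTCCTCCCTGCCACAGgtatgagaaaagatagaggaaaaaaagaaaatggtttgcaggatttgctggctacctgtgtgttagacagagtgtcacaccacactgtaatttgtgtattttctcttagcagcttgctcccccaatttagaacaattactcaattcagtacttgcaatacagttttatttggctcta
SLC38A1: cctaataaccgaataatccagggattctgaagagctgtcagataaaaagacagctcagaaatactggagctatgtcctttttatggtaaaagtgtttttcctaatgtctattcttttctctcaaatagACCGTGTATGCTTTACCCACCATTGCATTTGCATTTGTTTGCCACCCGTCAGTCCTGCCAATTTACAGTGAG
HNRNPU: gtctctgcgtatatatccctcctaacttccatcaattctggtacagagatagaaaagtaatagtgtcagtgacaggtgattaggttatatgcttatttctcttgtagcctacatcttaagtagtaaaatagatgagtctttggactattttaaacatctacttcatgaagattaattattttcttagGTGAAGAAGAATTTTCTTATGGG

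In contrast to these edge peaks, most peaks of genes with many intron peaks lay far from any splice site, and a pair of them is shown. Capitals mark the longest run of C and T, since pyrimidine runs are a feature of 3′ splice sites. The peak of CRADD, which encodes a death domain adaptor, at chr12:94192801-94193000 (plus strand) lay 8268 bp from the nearest annotated splice site of the gene, in intron 2. The HMGA2 peak at chr12:66331801-66332000 (plus strand) lay 13162 bp from the nearest one, in intron 3. Their longest pyrimidine runs were 9 and 8 bases, and neither peak overlapped an exon or held high-copy sequence as defined further on.
CRADD: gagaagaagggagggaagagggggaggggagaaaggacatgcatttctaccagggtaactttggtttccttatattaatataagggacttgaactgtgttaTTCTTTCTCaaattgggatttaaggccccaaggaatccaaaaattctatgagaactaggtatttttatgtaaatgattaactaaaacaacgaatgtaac
HMGA2: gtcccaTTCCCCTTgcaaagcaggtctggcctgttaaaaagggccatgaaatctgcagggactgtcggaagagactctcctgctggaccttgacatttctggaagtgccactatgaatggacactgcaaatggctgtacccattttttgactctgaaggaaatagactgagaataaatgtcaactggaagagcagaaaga

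The 200 peaks carried 61 gene names, of which 51 had intron peaks and 10 had intergenic peaks. Peaks were spread unevenly over them. A lone intron or intergenic peak was listed for 34 genes, while 148 of the 200 peaks came from 18 genes that had at least 3. Among the exon and UTR peaks, by comparison, 84 of 115 genes had a lone peak. Only 19 of the 61 genes also had an exon or UTR peak in the list, so for most of them the intron or intergenic peaks were all that was listed. Because so much rested on a few genes, intron peaks were also split, after the data had been seen, into 45 peaks of 36 genes with 1 or 2 intron peaks and 116 peaks of 15 genes with 3 or more, which left 74 peaks of 14 genes without HMGA2.

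Intron and intergenic peaks were wide. Their median width was 600 bp (interval 600 to 800 bp, middle 50% from 205 to 1050 bp), against 210 bp (205 to 400 bp) for exon and UTR peaks. In bins of the caller the medians were 3 and 1. A lone bin made up 66 of the 200 peaks (33.0%, 26.9 to 39.8%) and 52.2% of the exon and UTR peaks (44.5 to 59.7%). Without HMGA2 the median was again 600 bp and the share of peaks of 1 bin 37.3%. With 1 value per gene the medians were nearer, 400 and 315 bp. The width went with the number of peaks in a gene. In genes with 3 or more intron peaks the median was 800 bp, the same with and without HMGA2. In genes with 1 or 2 it was 205 bp (interval 200 to 400 bp), and 62.2% of their peaks were 1 bin, so their typical width, like that of the exon and UTR peaks, was a lone bin. The widest peak, of 5000 bp, belonged to LOC100129940 (HMGA2-AS1), a gene antisense to HMGA2. Peaks of LINC00478 (MIR99AHG), the host gene of a microRNA cluster, came next with up to 4100 bp. They had a median of 1230 bp, and none of its 19 peaks was a lone bin. CRADD was at the other end, with 6 intron peaks of 1 bin each.

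**Figure D1:**
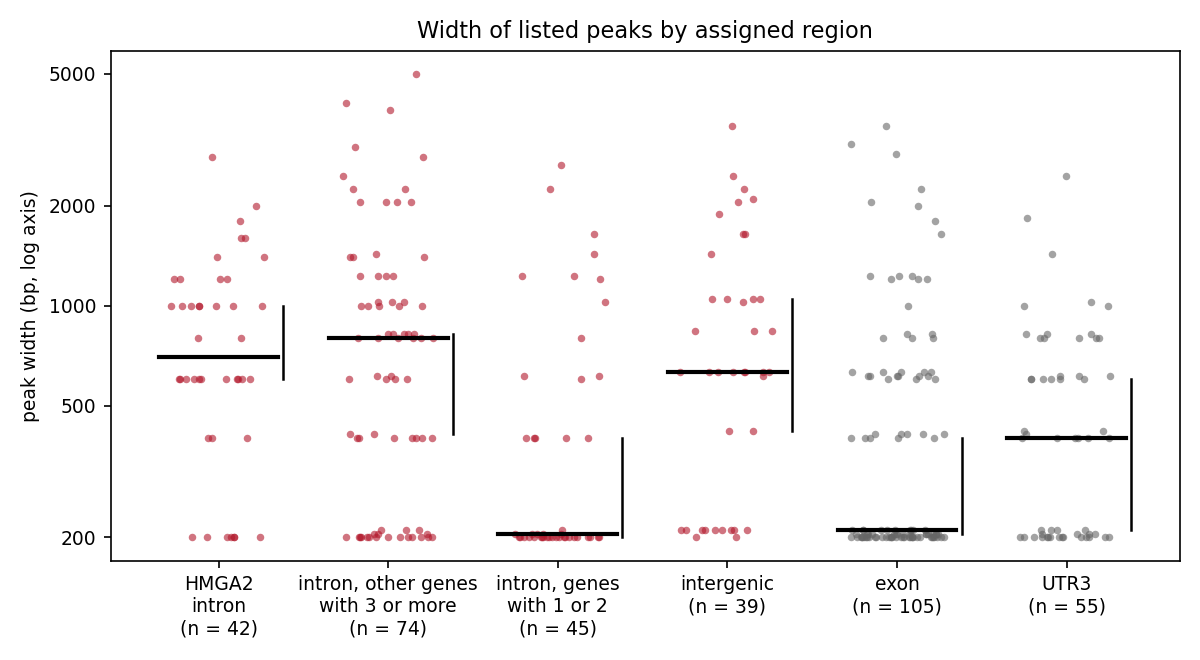
Width in bp, on a log axis, of each listed peak by assigned region, with intron peaks split by the number of intron peaks in the gene, with points for peaks, horizontal lines for medians and thin vertical lines for 95% order-statistic intervals. Intron peaks of genes with 1 or 2 had a median of 205 bp, near the 210 bp of exon peaks, and those of other genes with 3 or more a median of 800 bp.

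Intron and intergenic peaks lay close to each other. Of the 200 peaks, 94 (47.0%, 40.2 to 53.9%) had another intron or intergenic peak within 1000 bp, against 33 of the 161 exon and UTR peaks (20.5%, 15.0 to 27.4%). The share was 88.1% for HMGA2, 36.1% without HMGA2 and 35.9% for intergenic peaks. With 1 value per gene it was 19.4%, against 11.3% for exon and UTR peaks, so much of the closeness came from a few genes. The median gap to the nearest peak of the same kind was 1200 bp for intron and intergenic peaks (2050 bp without HMGA2) and 53400 bp for exon and UTR peaks. Of the 61 neighbouring pairs within 1000 bp, 25 were separated by 1 bin, 11 by 2 bins and 14 by 3 bins, so that many close pairs were a wide stretch with a short break.

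Joined over gaps of at most 1000 bp, the 200 peaks formed 139 clusters. Of these, 106 were lone peaks, and 10 clusters of 3 or more held 48 peaks. The exon and UTR peaks formed 144 clusters, with a single cluster of 3. The largest cluster joined 14 peaks of HMGA2 over 20000 bp of intron 3 (chr12:66291201-66311200), and 64.0% of it was covered by peaks. Without HMGA2, 5 clusters of 3 or more remained with 21 peaks. The largest of these, chr12:66265401-66269400, also lay within the span of HMGA2, with 6 peaks of LOC100129940 and of LOC101927810. The widest gap between HMGA2 peaks, 27000 bp, was the stretch that held the 7 intron peaks of LOC100129940 and the 4 of LOC101927810. The list gives no strand, and peaks there cannot be told apart as HMGA2 or antisense RNA. The 7 peaks of LOC100129940 covered 64.5% of the 12400 bp from the first to the last of them.

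The other genes with many peaks differed in how tightly these were packed. The 6 peaks of LOC100507065 (MSRB3-AS1) covered 36.4% of 6600 bp, and the 3 HNRNPU peaks 37.5% of 1680 bp. In CCND2, which encodes cyclin D2, 5 intron peaks covered 36.6% of 14200 bp. The 3 peaks of EMP1, an epithelial membrane protein gene, covered 50% of 8400 bp of intron 1. Coverage was alike for the 4 peaks of LOC101927810 (42.9% of 7000 bp), the 3 of SLC5A3 (37.1% of 14350 bp) and the 5 of LINC00308 (36.4% of 29315 bp). The following genes had a lower coverage. The 12 peaks of LOC101927273 (LINC01416), a non-coding gene, covered 22.4% of 40320 bp. LINC00478 peaks spread over 490975 bp, with 6.10% covered and a median gap of 3075 bp. CRADD peaks covered 4.41% of 27200 bp. LOC100288798 (SLC38A4-AS1) had 5 peaks over 219800 bp, with gaps of up to 108200 bp, and MSRB3, a methionine sulfoxide reductase gene, 3 over 89800 bp.

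**Figure D2:**
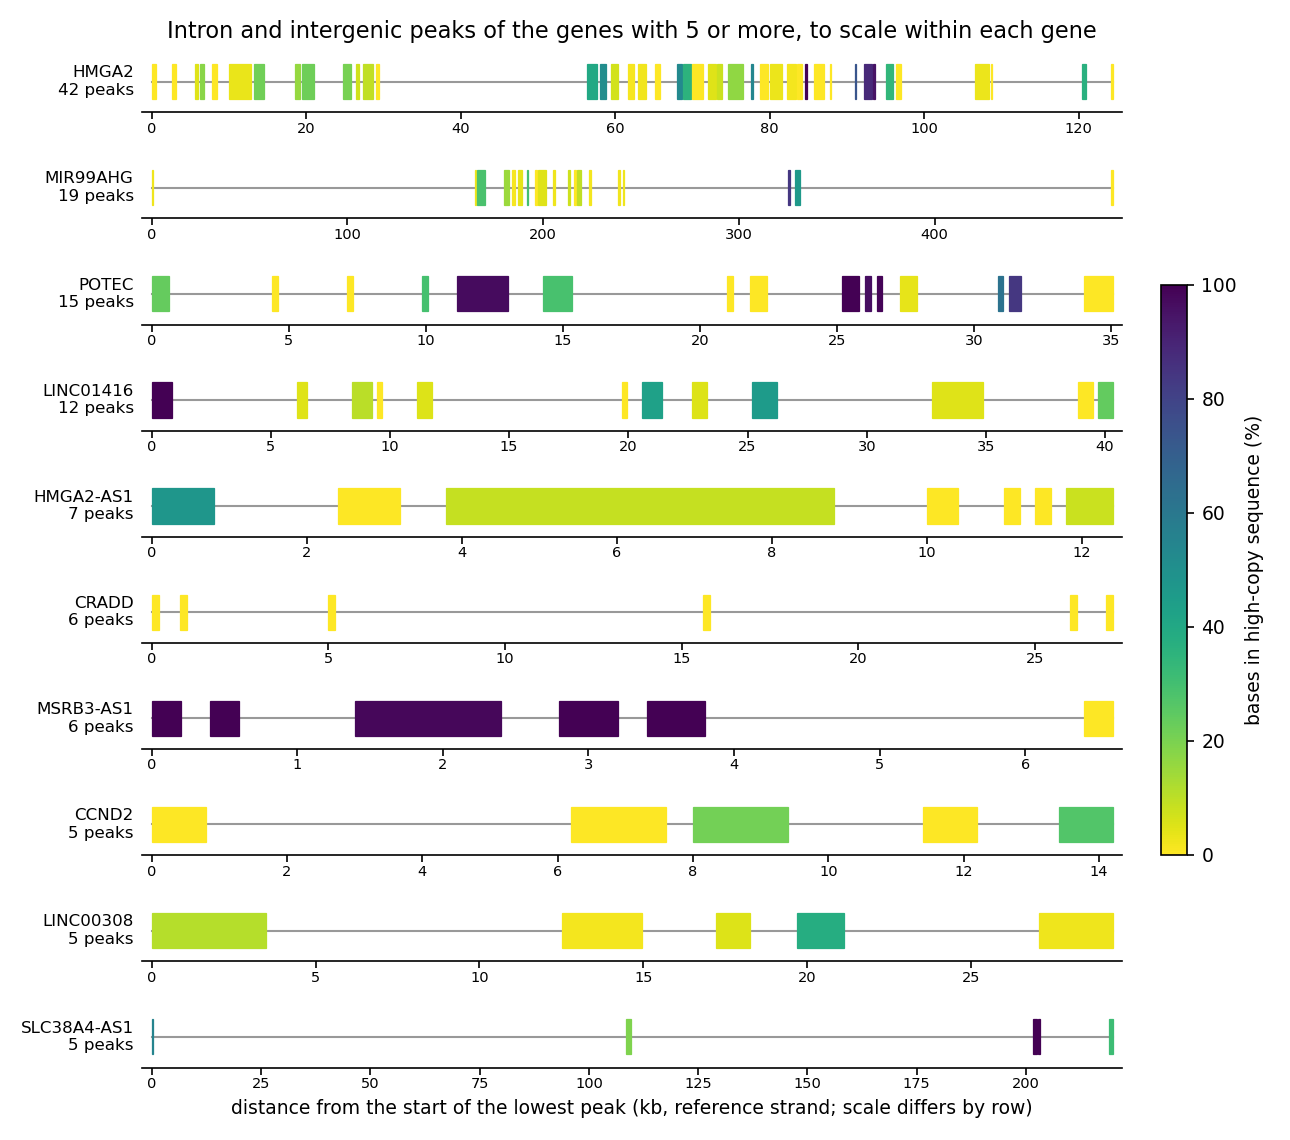
Positions of the intron and intergenic peaks of the genes with 5 or more, as distance in kb from the start of the lowest peak on the reference strand, drawn to scale within each gene, under current symbols (MIR99AHG is LINC00478 in the list, LINC01416 is LOC101927273, HMGA2-AS1 is LOC100129940, MSRB3-AS1 is LOC100507065 and SLC38A4-AS1 is LOC100288798). Boxes are peaks, coloured by the percentage of bases in high-copy sequence, and the widest gap of HMGA2 is where the HMGA2-AS1 peaks lie.

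Many of the intron peaks overlapped an exon, and these were mostly peaks of genes with few. Of the 200 peaks, 55 (27.5%, 21.8 to 34.1%) touched an annotated exon of any gene, 30.4% without HMGA2 and 46.8% with 1 value per gene, though exons made up only 9.99% of the bases. Among exon and UTR peaks 99.4% touched an exon and 86.9% of the bases were exonic. The region label already says whether a peak was placed on an exon, so the label largely set this contrast. In genes with 1 or 2 intron peaks 62.2% touched an exon, against 16.2% in genes with 3 or more other than HMGA2. When each intron peak was placed in a class, 25 of the 161 held bases of a canonical exon of their own gene. Another 5 held its exons only through a transcript annotated as retaining an intron, 9 held another exon of their gene and 6 an exon of a different gene alone. In another class, 103 peaks (64.0%, 56.3 to 71.0%) lay in their gene but over no exon. The last 13 lay off any GENCODE gene with the listed name, and 2 of these touched an exon. In total 47 of the 161 intron peaks (29.2%) touched an exon of any gene. Genes with 1 or 2 intron peaks gave 21 of the 25 peaks on canonical exons, and no HMGA2 peak was among them.

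**Figure D3:**
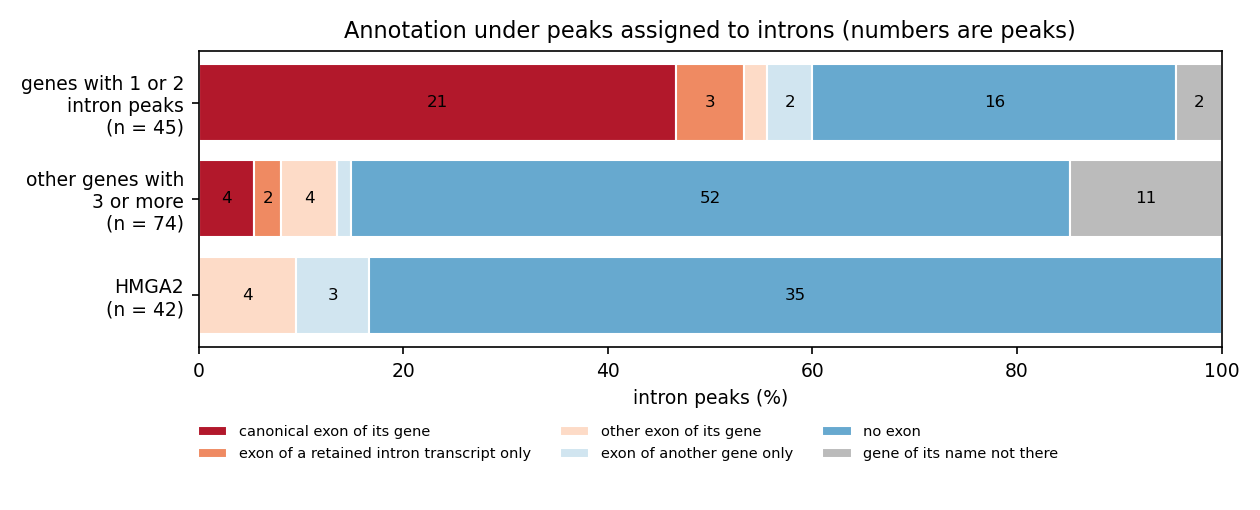
Percentage of intron peaks by what the annotation holds under them, for genes with 1 or 2 intron peaks, other genes with 3 or more, and HMGA2, with the number of peaks in each bar. Canonical exons of the same gene lay under 21 of 45 peaks in the top bar, 4 of 74 in the middle bar and 0 of 42 HMGA2 peaks.

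The 25 peaks over a canonical exon lay across its edge. All 25 held at least 1 splice site, 13 a 3′ splice site alone, 5 a 5′ splice site alone and 7 both kinds, and 17 of the 25 were a lone bin. The exon took a minor share of 22 of them, with a median of 81 exon bases, between 23 and 350. Edge peaks with a 3′ splice site alone included those of CHD4, the helicase of the NuRD complex, with 47 exon bases at chr12:6691401-6691600, and of SMARCC2, a subunit of the BAF remodelling complex, with 88 at chr12:56566401-56566600. Both ANAPC5 peaks and both ATXN2 peaks were of the same kind. An entire intron lay inside 5 peaks. Among these were intron 17 of the histone methyltransferase gene KMT2D (85 bp), intron 8 of BAZ2A (193 bp), intron 42 of PCNT (652 bp) and an intron of UBE2N.

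Genes for RNA-binding proteins were described as a group. Transcripts that retain an intron are annotated for several, and 15 intron peaks overlapped an exon of such a transcript of their gene, 7 of them along their full width. Those 7 came from HNRNPU, EWSR1, PCBP2 and ANAPC5. The 3 HNRNPU peaks, at chr1:245021701-245021910, chr1:245022121-245022330 and chr1:245023171-245023380, lay in introns 6, 5 and 4, which are 454, 433 and 960 bp long, and each lay under such a transcript entirely. The EWSR1 peaks, of 1025 and 615 bp, were in intron 8 (2775 bp) and took 36.9 and 22.2% of it. The peak of PCBP2, which binds C-rich RNA, lay in intron 12, 173 bp from a splice site. In DDX17, an RNA helicase gene, 1465 of the 1640 peak bases lay under a retained-intron transcript, in intron 11. The peak of SON, a splicing cofactor of nuclear speckles, was 615 bp wide and lay in intron 4 under another kind of exon, and the peak of RSRC2, an arginine and serine rich protein gene, touched no exon but lay 65 bp from a splice site of intron 6. These are genes of nuclear RNA metabolism, and all of these peaks lay within 510 bp of a splice site. Many others did so too, since 47 of 144 intron peaks (32.6%), and 43 of 102 (42.2%) without HMGA2, lay within 500 bp. Apart from HNRNPU, the genes described here had 1 or 2 intron peaks. All genes with 1 or 2 had a median distance of 60 bp, so closeness was not particular to RNA-binding genes.

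Position within introns separated the same groups of genes. Over the 148 matched intron peaks the median distance to the nearest annotated splice site of the gene was 1886.5 bp (1266 to 2937 bp), and a splice site lay inside 29 peaks (19.6%, 14 to 26.7%). Without HMGA2 a splice site lay inside 28 of 106 peaks (26.4%). For exon and UTR peaks the median was 48 bp, and 43.7% held a splice site. This contrast too was largely set by the label, since exon ends are splice sites. The distance depended on the genes and the annotation, and was 229.8 bp with 1 value per gene (53 bp for exon and UTR peaks) and 6260.5 bp with splice sites of canonical transcripts alone (124 bp). The HMGA2 peaks had a median of 6397 bp, and without them it was 1193 bp. Genes with 1 or 2 intron peaks had a median of 60 bp, and genes with 3 or more other than HMGA2 one of 2170 bp, so that the groups differed by more than the width of a typical peak. The amino acid transporter SLC38A2 had a peak of each kind in intron 4 (3171 bp), 1 across the 5′ splice site with 106 exon bases and 1 at 477 bp from a splice site. The farthest peak, of LOC100288798, lay 142687 bp from a splice site, in an intron of 486844 bp. Long introns held most of the peaks. Of the 144 peaks with their midpoint in a canonical intron, 106 (73.6%, 65.9 to 80.1%) lay in introns longer than 10000 bp and 76 in introns longer than 50000 bp. Without HMGA2 the former were 64 of 102 (62.7%) and the latter 40 of 102 (39.2%), a minority. The share of all intron sequence of these genes that lies in such long introns is not set beside these counts. They therefore do not show a preference of peaks for long introns. The median intron was 69730 bp, and 14763 bp without HMGA2. It was 2720 bp in genes with 1 or 2 intron peaks. Genes with 3 or more intron peaks also had fewer introns, with a median of 4 in the canonical transcript against 14.5.

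Along the intron the peaks showed no marked lean to an end. With each intron cut into 5 equal lengths from the 5′ end, the 144 midpoints numbered 34, 26, 30, 29 and 25. The median relative position was 0.486, and 0.418 over the 102 peaks without HMGA2, of which 57.8% (48.1 to 67%) lay nearer to the 5′ end. Individual genes were less even. In LINC00478, 15 of the 19 peaks lay in intron 5 (160498 bp), all in its first 51% or less by midpoint. The CRADD peaks lay between 0.673 and 0.831 of intron 2 (170897 bp), and 4 of the 5 CCND2 peaks lay in its last intron, intron 4 (10869 bp).

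The intergenic label depended on the annotation. Of the 39 intergenic peaks, 8 touched an exon of a GENCODE gene, 17 more lay within a gene, and 14 lay in none. Long non-coding RNA genes accounted for 21 of the 25 peaks with a gene and pseudogenes for 3. The 5 intergenic peaks named for LINC00308 lay within another long non-coding gene without a symbol and were wide, with a median of 2255 bp. A peak named for the kinase gene TBK1, chr12:64843401-64843600, lay fully inside an exon of XPOT, a tRNA exporter. The peak named for SLC38A4, chr12:47134201-47134400, lay within the antisense gene SLC38A4-AS1, and 99.5% of it was high-copy sequence. Of the 14 peaks outside genes, 13 were POTEC peaks and 1 was named for CXADRP3. POTEC belongs to a family of primate-specific ankyrin repeat genes with close copies, and 2 further POTEC peaks touched the olfactory receptor pseudogene OR4K7P.

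Non-coding RNA genes lay under many of the peaks. Of the 200, 88 (44%, 37.3 to 50.9%) lay within the span of such a gene, against 7.45% (4.31 to 12.6%) of exon and UTR peaks. The share was 51.9% without HMGA2 and 53.8% for intergenic peaks. Exons of non-coding RNA genes were touched by only 16 peaks (8%), so most of these peaks were intronic in the non-coding gene too. In all 28 non-coding genes lay under the peaks. MIR99AHG held 19, HMGA2-AS1 15, the unnamed gene under the LOC101927273 peaks 12, and MSRB3-AS1 and SLC38A4-AS1 6 each, so a few genes again held most of them. The 15 peaks in HMGA2-AS1 comprised 11 named for non-coding genes and 4 named for HMGA2. A protein-coding gene was named for 19 of the 88 peaks. These included the HOXB6 peak, which lay in HOXB-AS3, and the HOXC6 peak, both in clusters of developmental transcription factor genes. The 3 peaks named for the inositol transporter gene SLC5A3 and the 2 of MRPS6 lay in an unnamed non-coding gene as well. The 4 peaks of LOC400927 (TPTEP2) and the 3 of CECR7 were named for non-coding genes themselves. In genes with 3 or more intron peaks other than HMGA2 the share was 68.9%, and in genes with 1 or 2 it was 22.2%. Genes lay on both strands under 27 of the 200 peaks (13.5%), where the strand of the RNA cannot be told.

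Sequence that occurs many times in the genome was common in these peaks. The reference was not repeat-masked, so a base was counted as high-copy when it lay under a 20-mer found at least 10 times in hg19 on either strand. High-copy sequence made up 21.6% of the bases of intron and intergenic peaks and 6.74% of those of exon and UTR peaks. It was 23.2% without HMGA2, 19% for intron peaks, 31.2% for intergenic peaks and 15.5% for HMGA2. The share was uneven among peaks. In 75 peaks (37.5%) no base was high-copy, and in 37 (18.5%, 13.7 to 24.5%) at least 50% of the bases were, against 3 of the 161 exon and UTR peaks. SLC38A1 (91.7%), LOC100507065 (90.9%), LOC100288798 (57.3%) and POTEC (46.4%) were the highest among the genes with 3 or more, and CRADD had none. The edge peak of SLC38A1 shown above had none either, and both of its other peaks were over 95% high-copy. With a limit of 2 copies in place of 10, each POTEC peak had between 86.6 and 100% of its bases in repeated sequence.

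Aligned to each other with blastn over at least 250 bp at 80% identity or more, limits chosen after seeing the data, 28 of the 200 peaks resembled a listed peak of another gene (14%, 9.87 to 19.5%), against 4 of the 161 exon and UTR peaks. Part of this contrast is set by width, because a peak of 1 bin is shorter than 250 bp and could not qualify, which applied to 66 of the 200 and 84 of the 161. Without HMGA2, 20 of 158 peaks (12.7%) resembled a listed peak of another gene. With HMGA2 included, the alike peaks formed 2 families. The larger had 17 intron or intergenic peaks, 8 of them of HMGA2, with 4 exon or UTR peaks, from 12 genes. Its alignments had a median of 292 bp. The smaller had 11 peaks, all intronic or intergenic, from SLC38A1, LOC100507065, LOC100288798, POTEC, LOC101927273 (LINC01416) and CXADRP3. They shared up to 1003 bp, at a median identity of 89.5%, and 97.4% of their bases were high-copy. In its 7 intron peaks the sense strand of the gene was rich in A, with a median of 41.2% A and 20% T. Peaks in chromosomes 12 and 18 thus held copies of the same sequence, and to which copy a read belonged could not be examined without the reads.

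The share in peaks was set beside that of the same introns. Introns of genes with an intron peak were cut into the caller's bins, bins with any exon base were left out, and 514 bins in intron peaks were compared with 16419 bins that were not listed. High-copy sequence made up 21.3% of the former and 29.6% of the latter, and 23.3 and 29.9% without HMGA2. The higher share of intron peaks against exon peaks was therefore not seen against the surrounding introns, where the difference ran the other way. By gene the direction varied, and in 7 of 15 genes with at least 5 bins in peaks the share was higher in the peaks. It was 96.5 against 26.7% in SLC38A1 and 90.9 against 18.1% in LOC100507065, and 0 against 22.5% in CRADD and 0.488 against 28.3% in LSS, the lanosterol synthase gene. In HMGA2 it was 16.8 against 13.8%, and in LINC00478 15.9 against 21.1%.

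**Figure D4:**
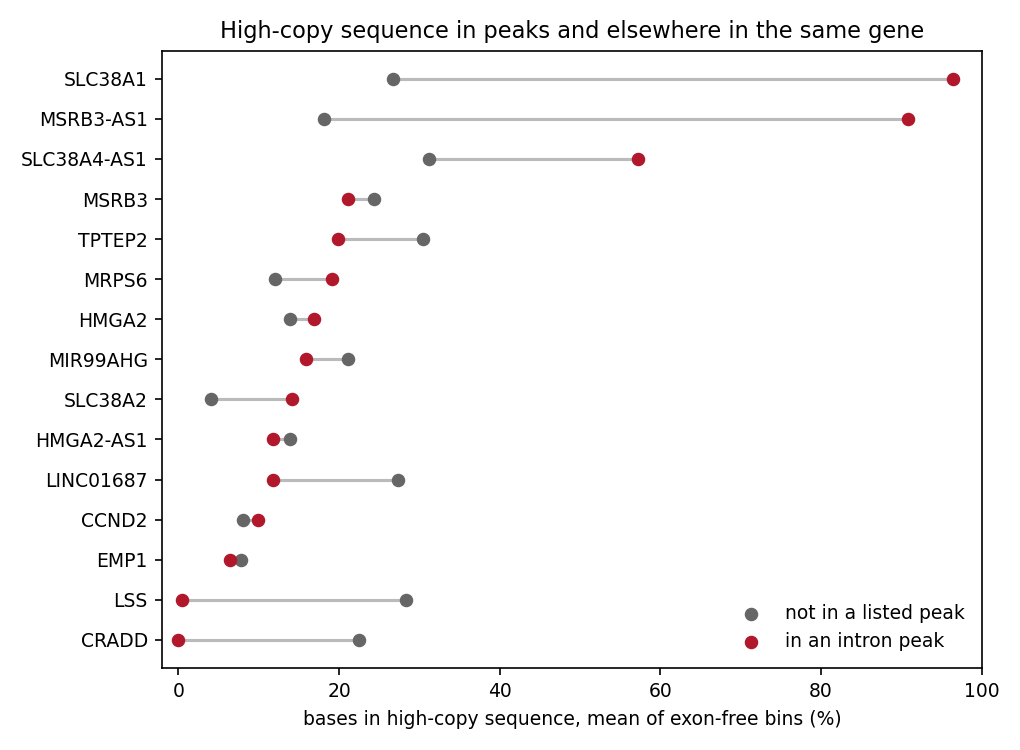
Percentage of bases in high-copy sequence, as the mean over exon-free bins, in intron peaks (red) and in bins of the same introns that were not listed (grey), for the 15 genes with at least 5 bins in peaks, under current symbols (TPTEP2 is LOC400927 in the list and LINC01687 is LOC101927843). SLC38A1 and MSRB3-AS1 lay above 90% in peaks, and CRADD and LSS below 1%.

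Intron and intergenic peaks were rich in A and T. Their median GC content was 39.3% (38.5 to 40.5%), with and without HMGA2, against 48.0% (45.5 to 51.0%) for exon and UTR peaks. It was 51.0% for exon peaks and 42% for 3′ UTR peaks. Intergenic peaks had 37.6% and intron peaks 40.0%. The lowest value was 21.5%, in a LOC101927810 peak (chr12:66268001-66268200), and the highest 67.3%, in the FLJ36000 peak (chr17:21906506-21906710). Among genes with many peaks CCND2 and EMP1 stood high, with medians of 49.4 and 49.3%. LINC00308, LOC101927810 and LINC00478 stood low, with 31.9, 36.2 and 36.3%. Medians of genes with many peaks thus differed, but lay well inside the range of single peaks. CpG dinucleotides occurred at 0.190 of the rate set by base content, against 0.283 in exon and UTR peaks. On the sense strand of the 148 matched intron peaks the medians were 29.8% A and 30% T, against 26.1% A and 24.5% T.

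**Figure D5:**
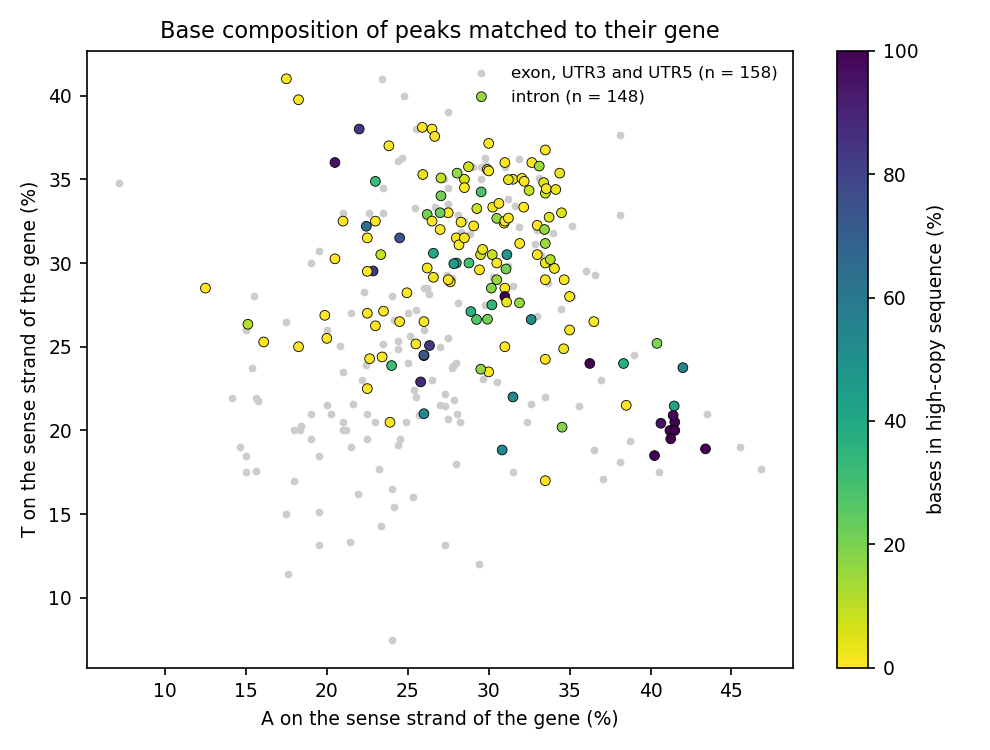
A against T on the sense strand of the gene, in % of bases, for 148 intron peaks matched to their gene (coloured by the percentage of bases in high-copy sequence) and 158 exon and UTR peaks (grey). The dark group near 41% A and 20% T is the intron peaks of SLC38A1, LOC100507065 and LOC100288798 that share sequence.

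Against the rest of the same introns the base composition of the peaks was close. The exon-free bins in peaks had a mean GC content of 39.8%, and the bins that were not listed 40.5%, but by gene the direction turned, with a higher value in the peaks in 10 of 15 genes. A was 30.4 against 28.1% and T 29.8 against 31.4%. By gene A was higher in the peaks in 9 and lower in 6, with a median difference of 0.605 points. T was higher in 6 and lower in 9, with a median difference of -1.09 points. Motifs were searched on the sense strand in the same bins. GTAAGT, a common start of introns, was in 3.11% of the bins in peaks (1.92 to 5%) and 3.77% of the others (3.49 to 4.07%). TTTTTT was in 20.8% (17.5 to 24.5%) against 26.7% (26.1 to 27.4%), and without HMGA2 in 19.6% against 26.8%. AATAAA, the core of polyadenylation signals, was in 18.7% (15.5 to 22.3%) against 15.4% (14.8 to 15.9%), with no steady direction by gene (higher in 8, lower in 7), and AAAAAA in 19.5% against 18.6%. TTTTTT was less frequent in the peaks in 11 of the 15 genes with at least 5 bins in peaks, and GTAAGT was too rare in the few bins of most genes to be compared by gene. In HMGA2 itself TTTTTT was in 23.5% of the bins in peaks and 22.4% of the others. Bins within a gene are neighbours and not independent, so these intervals are too narrow for the number of genes.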

How the data were processed

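RIP-seq was performed in A2780 cells expressing FLAG-USP39, with 1 precipitated and 1 input library. The authors trimmed the reads, removed rRNA sequences, aligned the rest to hg19 with TopHat2 2.0.13 (submitters' processing notes) and called peaks with RIPSeeker; the role of the input in calling is not given in the sources used here. The deposited list holds peak positions, with a region, transcript and gene for each. No counts or scores were used. Depth is therefore unknown.

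Peaks were compared with GENCODE release 44 lifted to GRCh37. Own-gene measures used peaks overlapping the annotated gene of their name. Copies of 20-mers were counted over both strands of the reference. Tools were numpy 2.4.6, pandas 2.3.3, scipy 1.17.1, numba 0.67.0, matplotlib 3.10.9, samtools 1.23.1 and blastn 2.17.0 (E-value at most 1e-10). Functions were tested on simulated data. Genes named are those with 3 or more intron or intergenic peaks, those for RNA-binding, chromatin, HOX or solute carrier proteins with such peaks, those at extremes, and those of printed sequences; ANAPC5, ATXN2, PCNT, UBE2N, LSS, MRPS6, TBK1, XPOT and CXADRP3 were added after their values were seen. Members and lists were chosen with earlier results of these data known. No test was made.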

Additional observations from a re-analysis of the deposited data

How the results depend on the processing

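The 7 measures compared above were recomputed under 65 alternatives, 47 planned and 18 added after seeing the data (the splits by number of intron peaks). In 27 the value stayed within the 95% interval of the main value, in 36 it moved outside and in 2 the difference from exon and UTR peaks changed sign. Why values shifted was not examined; the cause was not tested. The list has no score, so a stricter threshold could not be tried, and unknown depth limits all values to the presence and position of peaks. No paired analysis was possible because neither library had a partner from a repeat of the experiment.

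The changes of sign were in genes with 1 or 2 intron peaks, whose median width was 205 bp against 210 bp and whose share with a neighbour was 13.3% against 20.5%. Both median widths are 1 bin, so they differ only by the bin size of the chromosome, and the intervals of the neighbour shares overlap (6.26 to 26.2% and 15.0 to 27.4%). The split by number of peaks itself limits neighbours within a gene, and exon and UTR peaks were not split likewise, so this share is not compared like for like. In these genes the share over an exon was 62.2%, the distance to a splice site 60 bp, the high-copy share 9.85% and GC 42%. In genes with 3 or more, 63.8% had a neighbour, 16.4% lay over an exon and the distance was 3537 bp, and without HMGA2 16.2% lay over an exon. Leaving out HMGA2 gave 36.1% with a neighbour, a distance of 1193 bp and 51.9% over a non-coding gene. Leaving out chromosome 12 gave (exon and UTR peaks in brackets) a width of 820 bp (410), 33.3% with a neighbour (16), 885 bp to a splice site (56), 64.3% over a non-coding gene (10.7) and GC of 37.9% (47.1). With 1 value per gene the width was 400 bp (315), the share with a neighbour 19.4% (11.3), the share over an exon 46.8% (99.1) and the distance 229.8 bp (53). Intergenic peaks alone gave 35.9% with a neighbour, 20.5% over an exon, 31.2% high-copy bases, 53.8% over a non-coding gene and GC of 37.6%. Joining peaks first gave a width of 820 bp. Neighbours within 200 bp were found for 16% and within 5000 bp for 74.0%. Exons covered the larger part of the peak in 13%, exons of protein-coding genes were touched by 18.5% and canonical exons by 17.5%. Canonical splice sites gave a distance of 6260.5 bp. High-copy bases were 53.4% at 2 copies or more and 16.1% at 100 or more. Exons of non-coding genes were touched by 8%, and 36.5% were named for a non-coding gene in the list.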

Other observations

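Primers of the study against HMGA2 were placed on hg19 by exact match. The pre-RNA pair, which is also the site 3 pair, lies inside the listed peak chr12:66309001-66310200 in intron 3, as does the reverse primer of the 3-3a/b minigene. The site 2 pair lies outside the listed peaks, 242 and 58 bp from the nearest, and the primers for the mature mRNA, for exon 1 with intron 1 and for intron 4 with exon 5 lie in no listed peak. Most of these primers matched hg19 at 1 place. The reverse primer of site 1, which lies 378 bp from the nearest listed peak of HMGA2, matched at 12040 places, and another reverse minigene primer in intron 3, 325 bp from the nearest, at 4413.

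Annotated small RNA genes lay under 2 of the 200 peaks. These were a microRNA gene, AC090673.1, under the HMGA2 peak chr12:66250601-66251800, and a small nucleolar RNA gene annotated as SNORD74 under the LINC00478 peak chr21:17656036-17657265.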
